A study of Mus musculus with 18 samples.

Results

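Aldehyde dehydrogenases and aldo-keto reductases are the enzyme families that oxidize or reduce aldehydes, ketones and sugars, and their genes were taken by name: every gene of the count table whose symbol begins with *Aldh* or *Akr* followed by a number. This gave 37 of the 35275 genes in the table, 20 aldehyde dehydrogenase and 17 aldo-keto reductase genes. RNA-seq libraries came from 6 mouse cell lines, each grown from a separate malignant peripheral nerve sheath tumor (MPNST), a sarcoma of nerve, and each sequenced as 3 cultures. An adenovirus carrying Cas9, driven by the CMV promoter that is active in many cell types, and guide RNAs had been injected into the sciatic nerve of wild-type 129 Sv/Jae mice. The guides targeted *Nf1* and *p53* (*Trp53* in the mouse) for 3 lines, named *Nf1*/*p53* dKO (double knockout), and *Nf1* and *Cdkn2a* for 3 lines, named *Nf1*/*Cdkn2a* dKO. *Nf1* was thus targeted in all 6 lines, no unedited nerve or Schwann cells were part of the comparison, and the cultures were untreated. Each line stands for 1 tumor, so the line was the replicate (n = 3 per genotype) and its 3 cultures were summed.

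Aldehyde dehydrogenases oxidize aldehydes to acids, mostly with NAD+ or NADP+, and their substrates include retinaldehyde, fatty aldehydes, intermediates of amino acid breakdown and formyl groups carried on folate. Aldo-keto reductases work in the other direction, using NADPH to reduce aldehydes, glucose and steroid ketones to alcohols. Several genes of both families are known targets of NRF2, the oxidant-responsive transcription factor, and high aldehyde dehydrogenase activity is widely used as a stem cell label.

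Libraries held 19560535 to 28312207 counts and lines 65206479 to 73065228. Levels are given as CPM, counts scaled to the TMM-adjusted total of a line, and a gene is said to be called, to have risen or to have fallen only at an adjusted *P* under 0.05 (edgeR's quasi-likelihood test on the 6 lines with Benjamini-Hochberg adjustment over 15207 genes). *Trp53* was at 94.1, 67.5 and 58.7 CPM in *Nf1*/*p53* dKO lines 1 to 3 and at 247, 246 and 185 CPM in *Nf1*/*Cdkn2a* dKO lines 1 to 3 (adjusted *P* = 0.0361, edgeR). *Cdkn2a* (363, 279 and 42.9 against 169, 392 and 285 CPM) and *Nf1* (70.0, 33.5 and 27.7 against 12.7, 38.3 and 16.2 CPM) overlapped between the genotypes, so their transcript levels do not tell the labels apart, and edits were not examined here. The Y-linked gene *Ddx3y* was at 80.5 and 79.1 CPM in *Nf1*/*Cdkn2a* dKO lines 1 and 2 and at no more than 0.0141 CPM in the other 4 lines, which held *Xist* at 360.0 to 780 CPM. Genotype and sex of the tumor's host are thus partly the same split, and only *Nf1*/*Cdkn2a* dKO line 3 shares the *Xist*-bearing state with the *Nf1*/*p53* dKO lines. Of the marker genes checked, 8 mesenchymal genes summed to between 8826 and 23516 CPM in the 6 lines and 8 Schwann cell genes to between 1.49 and 11.3 CPM, so Schwann cell markers were close to absent. Muscle genes (6) summed to between 53.7 and 417 CPM in *Nf1*/*p53* dKO lines and to between 0.203 and 0.802 CPM in *Nf1*/*Cdkn2a* dKO lines. Whether the muscle genes bear on the levels below was not tested.

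Both families were measured from very high to undetected. Of the 37 members, 27 passed the filter on low counts (18 *Aldh* and 9 *Akr*). The other 10 were *Aldh1a2*, *Aldh3b2*, *Akr1b7*, *Akr1c6*, *Akr1c12*, *Akr1c19*, *Akr1c20*, *Akr1c21*, *Akr1cl* and *Akr1d1*. None of these 10 had more than 41 counts over all libraries or more than 0.274 CPM in a line, a maximum that belonged to *Aldh1a2*. *Akr1c6*, *Akr1d1* and *Aldh3b2* had 0 counts throughout, which allows at most 3 counts, or 0.0387 to 0.0481 CPM, in a line, counting error only.

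In these bulk libraries, fewer cells that express a gene and less of its RNA per cell cannot be told apart. Per exon length, as TPM (counts divided by exon length and scaled to a common total), the families were led by reductases. *Akr1a1*, the aldehyde reductase that acts on many small aldehydes, averaged 535 TPM over the 6 lines, and *Akr1b8*, *Akr1b3* and *Aldh2* averaged 260.5, 169 and 126 TPM. The summed TPM of all *Aldh* genes was 580, 431 and 453 in *Nf1*/*p53* dKO lines 1 to 3 and 435, 430 and 391 in *Nf1*/*Cdkn2a* dKO lines 1 to 3. These sums overlapped between the genotypes. The summed TPM of all *Akr* genes was 1159, 958 and 1270 in *Nf1*/*p53* dKO lines, and 1553, 2617 and 1402 in *Nf1*/*Cdkn2a* dKO lines, with no overlap. The share of the *Akr* genes in the sum of both families was 66.7, 68.9 and 73.7% against 78.1, 85.9 and 78.2%. A single gene, *Akr1c18*, made up 10.6, 1.16 and 0.762% of that sum in *Nf1*/*p53* dKO lines, and 29.1, 46.9 and 25.4% in *Nf1*/*Cdkn2a* dKO lines. It ranked 3, 11 and 15 among the members in the former lines and 1, 1 and 2 in the latter. With *Akr1c18* left out, the sum of both families was 1554, 1373 and 1709 TPM against 1410, 1616 and 1337 TPM, which overlapped.

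**Figure D1:**
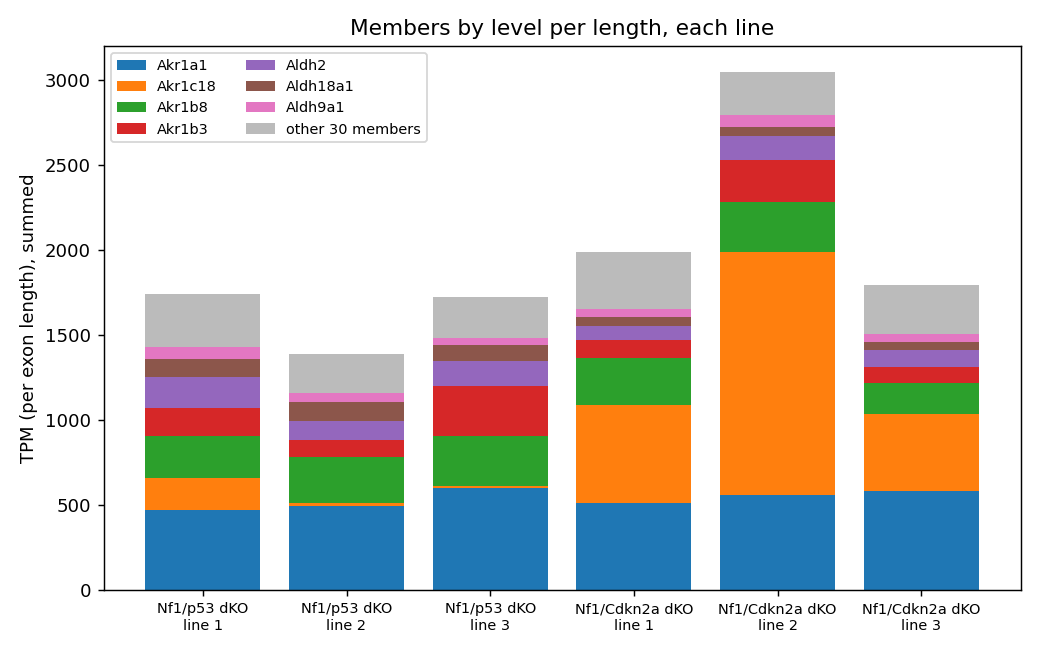
Summed level per exon length (TPM, linear axis from 0) of all 37 members in each of the 6 lines, with the 7 members of highest mean TPM in color and the other 30 in gray. *Akr1c18* (orange) fills 25.4 to 46.9% of the bar in *Nf1*/*Cdkn2a* dKO lines, and 0.762 to 10.6% in *Nf1*/*p53* dKO lines, while *Akr1a1* (blue) is between 472 and 600 TPM in every line.

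Between genotypes, 2 of the 27 tested members were called, both lower in *Nf1*/*Cdkn2a* dKO lines, *Aldh1l2* and *Aldh18a1*. No member was called higher by this test, although 7 members of 27 had an unadjusted *P* under 0.05. Over all genes tested, 1.8% were called (0.638% higher and 1.16% lower) and 22.4% had an unadjusted *P* under 0.05. The absence of higher members depended on the test. DESeq2 on the same 6 lines called 6 members, 4 of them higher (*Akr1c18*, *Aldh1a1*, *Aldh1a7* and *Aldh3a2*). It also called more of all genes, 939 higher and 1232 lower. For 8 members every line of one genotype was higher than every line of the other, 4 higher in *Nf1*/*Cdkn2a* dKO lines (*Aldh3a2*, *Akr1c18*, *Aldh1a1* and *Aldh1a7*) and 4 lower (*Akr1e1*, *Aldh18a1*, *Aldh7a1* and *Aldh1l2*), against 31.4% of all genes (14.8% higher, 16.6% lower). The fitted log2 fold change was above 0 for 18 members and the median over the 27 was 0.19, while 48.2% of all genes were above 0 and their median was -0.02. Both counts of separated members are close to the share over all genes.

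**Figure D2:**
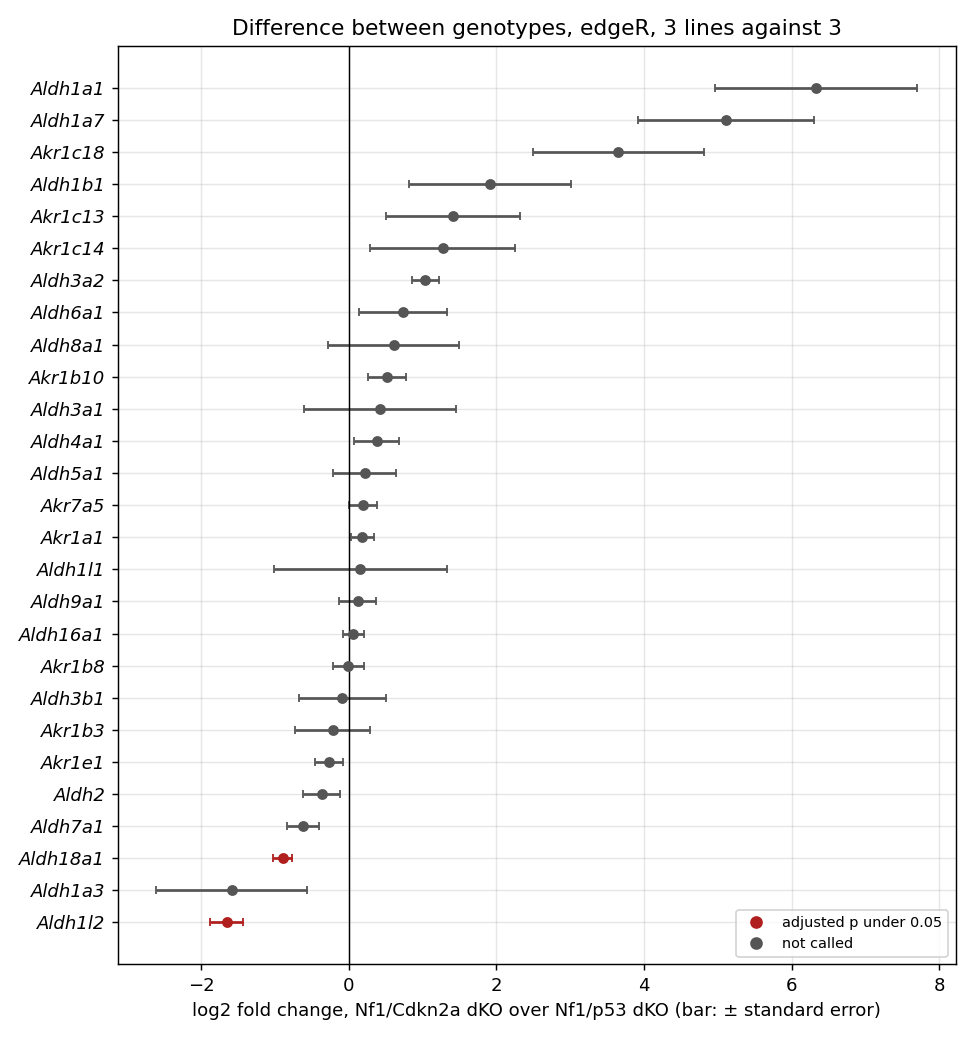
Fitted log2 fold change (*Nf1*/*Cdkn2a* dKO over *Nf1*/*p53* dKO, edgeR, 3 lines each) of the 27 tested members, bars ± standard error, red where the adjusted *P* was under 0.05. *Aldh1l2* (-1.66) and *Aldh18a1* (-0.89) are in red, and the widest bar, that of *Aldh1a1* (6.33 ± 1.37), is not.

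Many members varied widely between lines, within a genotype as well as between genotypes. The highest line was at least 10 times the lowest for 10 of the 27 tested members, counting *Aldh1b1*, which had a line at 0, against 14.7% of all genes, and the median ratio of highest to lowest line was 2.94 against 2.12 over all genes. These figures describe the list and carry no test. The median share of variance in log2(CPM + 1) that lay between lines rather than between cultures of a line was 91.0% in *Nf1*/*p53* dKO and 89.0% in *Nf1*/*Cdkn2a* dKO for the members, and 84.0% and 55.3% over all genes. The culture values of all 3 *Nf1*/*p53* dKO lines were mutually separate for 9 members (background 31.7%), and those of all 3 *Nf1*/*Cdkn2a* dKO lines for 8 members (background 15.1%). *Aldh2*, *Aldh3a1*, *Aldh1l1* and *Akr1c14* were separate in both genotypes.

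**Figure D3:**
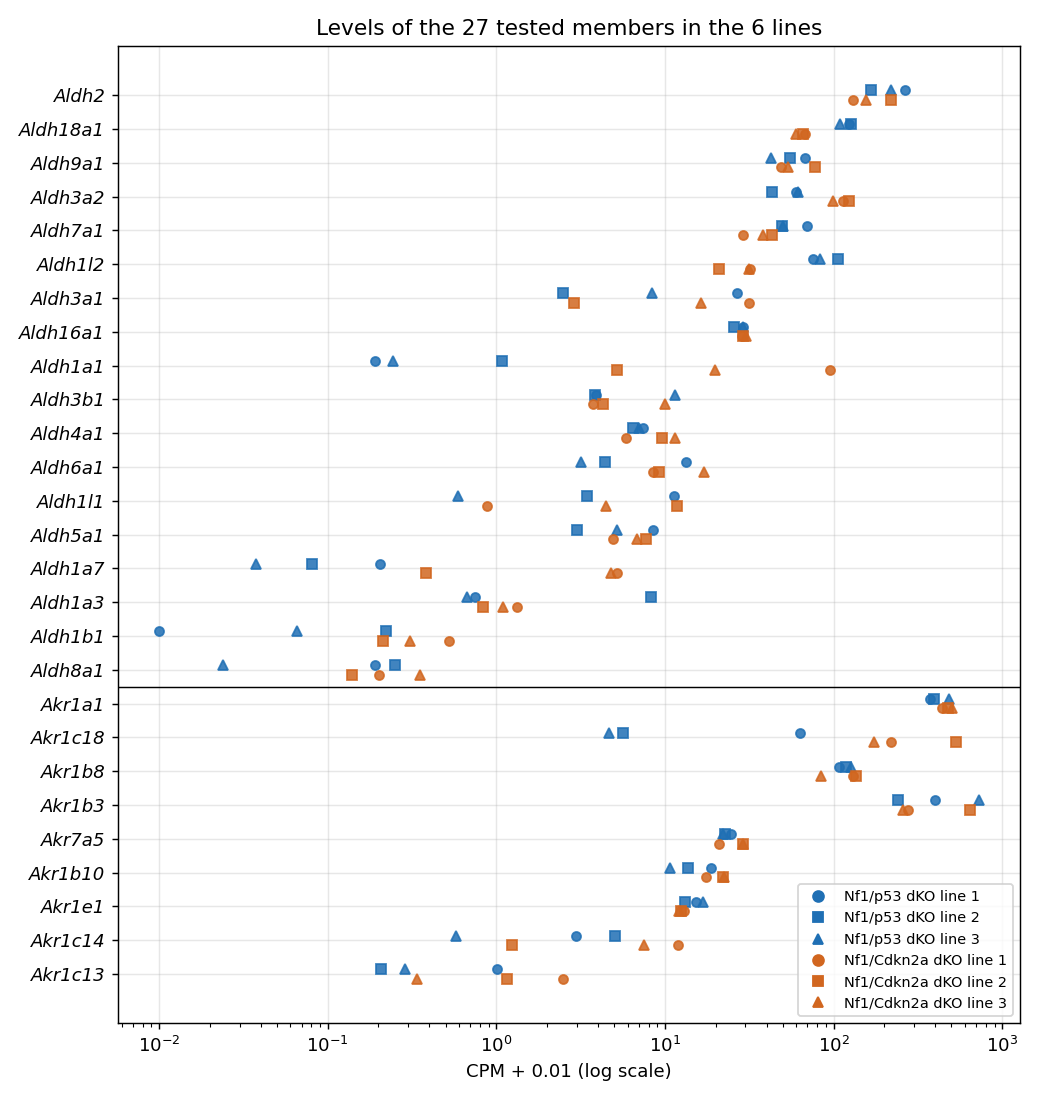
Level of each of the 27 tested members (CPM + 0.01, log axis) in the 6 lines, *Nf1*/*p53* dKO in blue and *Nf1*/*Cdkn2a* dKO in orange, with the symbol giving the line number. Members run from *Akr1c13*, *Aldh8a1* and *Aldh1b1* near or under 1 CPM to *Akr1a1* at 370 to 503 CPM, and *Aldh1b1* in *Nf1*/*p53* dKO line 1 is a count of 0.

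The retinaldehyde dehydrogenases make retinoic acid, and *Aldh1a7* is grouped with them by its sequence. *Aldh1a1* and its neighbor *Aldh1a7* are close copies on chromosome 19 (chr19:20492715-20643465, plus strand, and chr19:20692953-20727562, minus strand, GRCm38), 49.5 kb apart. Their coding sequences, 1503 bases each, were identical at 1377 positions (91.6%), and the longest unbroken identical run was 100 bases. A read that falls inside that run cannot be given to 1 of the 2 genes, which is why it is shown here in both annotated coding sequences (positions 732 to 881 of each, GENCODE M21 transcripts of GRCm38), with 25 flanking bases on each side and the 5 differing bases in capitals.
Aldh1a1: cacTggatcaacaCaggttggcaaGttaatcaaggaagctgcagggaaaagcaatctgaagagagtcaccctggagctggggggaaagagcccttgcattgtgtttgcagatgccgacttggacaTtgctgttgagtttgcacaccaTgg
Aldh1a7: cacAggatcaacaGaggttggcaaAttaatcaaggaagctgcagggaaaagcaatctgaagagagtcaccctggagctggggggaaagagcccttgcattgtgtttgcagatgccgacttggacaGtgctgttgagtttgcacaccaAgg
Of all 50-base stretches of the transcripts, 3.06% of those of *Aldh1a1* and 7.49% of those of *Aldh1a7* were found in the other gene, so most stretches told them apart, and how the authors' counting treated the shared ones is not given in the sources used here.

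*Aldh1a1* stood at 0.180, 1.07 and 0.235 CPM in *Nf1*/*p53* dKO lines 1 to 3 and at 94.9, 5.19 and 19.8 CPM in *Nf1*/*Cdkn2a* dKO lines 1 to 3. All 3 *Nf1*/*Cdkn2a* dKO lines were above all 3 *Nf1*/*p53* dKO lines, and the highest line was 526 times the lowest, the largest such ratio among the tested members without a line at 0. The size of that ratio is uncertain, since the *Nf1*/*p53* dKO lines held only 14, 76 and 17 counts. The fitted log2 fold change of 6.33 ± 1.37 (SE, n = 3 lines) was not called (adjusted *P* = 0.0682, edgeR). Cultures of the *Nf1*/*Cdkn2a* dKO lines did not overlap between lines, at between 88.2 and 103 CPM in *Nf1*/*Cdkn2a* dKO line 1, between 3.23 and 6.22 CPM in line 2 and between 18.6 and 20.4 CPM in line 3.

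*Aldh1a7* was at 0.193, 0.0707 and 0.0277 CPM in *Nf1*/*p53* dKO lines and at 5.15, 0.375 and 4.77 CPM in *Nf1*/*Cdkn2a* dKO lines. The line values of the genotypes did not overlap, but line 2 of the *Nf1*/*Cdkn2a* dKO lines lay far below the other two, as it did for *Aldh1a1*. Few counts carry this separation, 15, 5 and 2 in *Nf1*/*p53* dKO lines and 26 in *Nf1*/*Cdkn2a* dKO line 2. Single cultures overlapped, up to 0.272 CPM in *Nf1*/*p53* dKO line 1 and from 0.232 CPM in *Nf1*/*Cdkn2a* dKO line 2. Its log2 fold change of 5.11 ± 1.19 was not called either (adjusted *P* = 0.0796, edgeR). The ratio of *Aldh1a1* to *Aldh1a7* thus differed between lines, with *Aldh1a7* nearly as high in line 3 as in line 1 while *Aldh1a1* was not.

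*Aldh1a3*, a further retinaldehyde dehydrogenase, was at 0.735, 8.27 and 0.664 CPM in *Nf1*/*p53* dKO lines and at 1.32, 0.822 and 1.08 CPM in *Nf1*/*Cdkn2a* dKO lines. Its range of more than 10 times rested on *Nf1*/*p53* dKO line 2 alone, whose cultures held 8.06 to 8.62 CPM. The log2 fold change was -1.59 ± 1.02 (adjusted *P* = 0.405, edgeR) with that line and 0.63 without it. The lines thus differed in which member carried the reads: *Aldh1a3* was the highest of the 4 genes in every *Nf1*/*p53* dKO line and *Aldh1a1* the highest in every *Nf1*/*Cdkn2a* dKO line, by CPM and by TPM, a description of lines with no test.

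Other genes of retinoid metabolism did not share one direction. Of 20 genes for retinoid transport, oxidation, breakdown and reception, 17 were tested. None was called (1.8% of all genes), with 4 at an unadjusted *P* under 0.05 (22.4% of all genes). This depended on the test, as DESeq2 on the 6 lines called *Crabp2*, *Cyp26b1* and *Rarb*, and 2171 of all genes. The highest fitted change was that of *Cyp26b1*, which encodes an enzyme that degrades retinoic acid, at 0.941, 1.43 and 0.360 CPM in *Nf1*/*p53* dKO lines and at 11.7, 1.76 and 19.1 CPM in *Nf1*/*Cdkn2a* dKO lines (log2 fold change 3.58, adjusted *P* = 0.0970, edgeR). As with *Aldh1a1* and *Aldh1a7*, *Nf1*/*Cdkn2a* dKO line 2 was the lowest of its genotype. The lowest was that of *Crabp2*, a carrier of retinoic acid within cells, at 222, 56.0 and 40.6 CPM against 25.3, 7.05 and 22.1 CPM (log2 fold change -2.55, adjusted *P* = 0.128, edgeR).

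The 10-formyltetrahydrofolate dehydrogenases release the formyl group of folate as CO2 and produce NADPH, *Aldh1l1* in the cytosol and *Aldh1l2* in mitochondria. *Aldh1l2* (chr10:83487450-83534140, minus strand) was at 75.6, 106 and 83.5 CPM in *Nf1*/*p53* dKO lines (88.4 ± 15.8, mean ± SD, n = 3) and at 31.8, 20.9 and 31.4 CPM in *Nf1*/*Cdkn2a* dKO lines (28.0 ± 6.20). Every *Nf1*/*p53* dKO line held more than 2 times the level of every *Nf1*/*Cdkn2a* dKO line. *Aldh1l2* fell by 1.66 on the log2 scale in *Nf1*/*Cdkn2a* dKO lines (SE 0.23, adjusted *P* = 0.0361, edgeR). *Nf1*/*Cdkn2a* dKO line 3, which shares the *Xist*-bearing state with the *Nf1*/*p53* dKO lines, was at 31.4 CPM, within the range of its genotype. Only a single *Nf1*/*Cdkn2a* dKO line bears *Xist*, which is too few to tell genotype and sex of the tumor's host apart for *Aldh1l2*.

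The end of *Aldh1l2* overlaps that of *D10Wsu102e* on the opposite strand, and 13.6% of its 50-base stretches were found in another gene, mostly that one. *D10Wsu102e* stood at 76.2 to 101 CPM over the 6 lines with a log2 fold change of -0.17 (adjusted *P* = 0.539, edgeR). Whether the counting used strand is not given, so the part of *Aldh1l2* counts that may belong to its neighbor cannot be told apart.

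*Aldh1l1* went with no genotype, at 11.4, 3.42 and 0.581 CPM in *Nf1*/*p53* dKO lines and at 0.866, 11.8 and 4.44 CPM in *Nf1*/*Cdkn2a* dKO lines. The genotypes overlapped over nearly the whole range, while all 3 lines of each genotype differed beyond their cultures. Its log2 fold change was 0.16 ± 1.18 (adjusted *P* = 0.952, edgeR) and changed sign when a single line was left out, from -0.94 to 1.51. *Aldh1l1* shares 10.0% of its 50-base stretches with other gene models.

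Enzymes of amino acid aldehydes held the other called member. *Aldh18a1* (chr19:40550257-40588463, minus strand) encodes the mitochondrial enzyme that makes the first intermediate of proline and ornithine synthesis from glutamate. It was at 124, 127 and 109 CPM in *Nf1*/*p53* dKO lines (119.8 ± 9.85, mean ± SD, n = 3) and at 68.0, 66.0 and 59.6 CPM in *Nf1*/*Cdkn2a* dKO lines (64.5 ± 4.39). The groups were well apart, the lines of a genotype lay within a narrow range and no 50-base stretch of its transcripts was found in another gene. *Aldh18a1* fell by 0.89 on the log2 scale (SE 0.13, adjusted *P* = 0.0388, edgeR).

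Of the next steps in proline synthesis, *Pycr1*, a mitochondrial reductase that completes proline, was at 19.0, 27.6 and 14.0 CPM in *Nf1*/*p53* dKO lines and at 7.91, 8.75 and 6.29 CPM in *Nf1*/*Cdkn2a* dKO lines (log2 fold change -1.40, adjusted *P* = 0.0689, edgeR). No overlap between genotypes was seen, but the change was not called. At the other end of the list stood *Prodh*, which starts the breakdown of proline, at 1.30, 2.63 and 1.20 CPM against 2.82, 7.76 and 1.88 CPM (log2 fold change 1.28, adjusted *P* = 0.287, edgeR), with overlap. Of 10 proline pathway entries 9 were in the table and 7 of them were tested. None was called (1.8% of all genes), with 2 at an unadjusted *P* under 0.05 (22.4% of all genes). This too depended on the test, as DESeq2 on the 6 lines called *Pycr1* and *Pycrl*, and 2171 of all genes.

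*Aldh4a1*, the enzyme that completes proline breakdown, was at 5.87 to 11.5 CPM in the 6 lines, overlapped between genotypes and was not called (log2 fold change 0.38, adjusted *P* = 0.504, edgeR). Its exons are shared with a readthrough gene model, *Gm21969*, for 30.0% of its 50-base stretches. That model held at most 0.0313 CPM. How the counting treated shared reads is not given, so the count of *Aldh4a1* is less certain. *Aldh7a1*, which acts in lysine breakdown, was at 69.9, 49.6 and 49.9 CPM in *Nf1*/*p53* dKO lines and at 28.9, 43.2 and 37.9 CPM in *Nf1*/*Cdkn2a* dKO lines. Its lines were apart, and its log2 fold change of -0.62 was not called (adjusted *P* = 0.167, edgeR). The remaining members of the group are *Aldh5a1*, which oxidizes succinate semialdehyde from GABA, *Aldh6a1* of valine breakdown, *Aldh9a1*, which oxidizes aminoaldehydes, and *Aldh8a1* of tryptophan breakdown. *Aldh9a1* was at 42.5 to 78.0 CPM, *Aldh6a1* at 3.17 to 17.1 CPM, *Aldh5a1* at 3.00 to 8.53 CPM and *Aldh8a1* at no more than 0.344 CPM, and all 4 overlapped between genotypes. *Aldh5a1*, *Aldh6a1* and *Aldh7a1* share 13.7, 16.1 and 6.35% of their 50-base stretches with other gene models, which leaves their counts less certain.

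*Aldh3a2*, *Aldh3a1*, *Aldh3b1* and *Aldh3b2* encode enzymes for fatty and aromatic aldehydes. *Aldh3a2* (chr11:61223417-61267464, minus strand), the fatty aldehyde dehydrogenase of the endoplasmic reticulum, was at 59.4, 43.1 and 61.8 CPM in *Nf1*/*p53* dKO lines and at 114, 123 and 99.1 CPM in *Nf1*/*Cdkn2a* dKO lines. No line of one genotype reached the range of the other. Its log2 fold change of 1.03 ± 0.18 (SE, n = 3 lines) missed the threshold narrowly (adjusted *P* = 0.0502, edgeR), and with DESeq2's size factors in place of TMM it was called (adjusted *P* = 0.0498, edgeR). With any 1 line left out, the log2 fold change of *Aldh3a2* was 0.90 to 1.13 and not called (adjusted *P* = 0.0718 to 0.151, edgeR).

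Its neighbor *Aldh3a1*, 5.00 kb away (chr11:61207537-61218421, plus strand) and best known from the cornea, behaved otherwise. It was at 26.8, 2.46 and 8.39 CPM in *Nf1*/*p53* dKO lines and at 31.3, 2.87 and 16.4 CPM in *Nf1*/*Cdkn2a* dKO lines. Both genotypes covered the same range, and in each the cultures of the 3 lines were separate. Its log2 fold change was 0.43 ± 1.03 (adjusted *P* = 0.834, edgeR), with a range from -0.37 to 1.64 when a line was left out. *Aldh3b1* overlapped as well, at 3.75 to 11.4 CPM, and was highest in line 3 of either genotype.

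Promoter sequence was read for the 2 members with a tight separation of genotypes, a RefSeq promoter window and no shared stretches, *Aldh18a1* and *Aldh3a2*. Both hold the E-box CACGTG, the hexamer bound by MYC, MITF and related factors, within 100 bases before the RefSeq start. The 250 bases before that start are shown 5′ to 3′ on the gene's strand, with the E-box in capitals (RefSeq, GRCm38.p6: *Aldh18a1* chr19:40588464-40588713, minus strand; *Aldh3a2* chr11:61267187-61267436, minus strand).
Aldh18a1: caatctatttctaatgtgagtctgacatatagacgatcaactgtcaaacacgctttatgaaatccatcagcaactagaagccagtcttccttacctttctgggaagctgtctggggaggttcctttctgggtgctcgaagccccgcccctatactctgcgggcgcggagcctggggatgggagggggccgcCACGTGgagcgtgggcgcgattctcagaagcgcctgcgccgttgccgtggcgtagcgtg
Aldh3a2: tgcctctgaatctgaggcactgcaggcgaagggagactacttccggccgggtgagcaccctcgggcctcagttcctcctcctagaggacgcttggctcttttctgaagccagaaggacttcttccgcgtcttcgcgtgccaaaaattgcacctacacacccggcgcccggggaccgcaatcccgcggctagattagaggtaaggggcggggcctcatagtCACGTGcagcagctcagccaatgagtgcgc
The annotations differ for *Aldh3a2*: 3 coding transcripts of GENCODE M21 begin 1 base from the RefSeq start, but 2 noncoding ones begin 255 and 278 bases further upstream, so the stretch shown lies inside the GENCODE gene span given above. The fold changes of these promoters' genes had opposite signs. Windows from 250 bases before to 50 bases after the start were at hand for 29 members. CACGTG, the same on both strands, was in 3 of them (10.3%, the third *Akr1c21*), against 8.09% of all genes with a window. TGACNNNGC, the core of the antioxidant response element that NRF2 binds, was on either strand in 4 members (13.8%: *Akr1c19*, *Akr1cl*, *Aldh1a2* and *Aldh9a1*) against 14.0% of all genes. TGATGNAAT, the element bound by ATF4 with its partners, was in none of the 29 and in 1.08% of all genes. These motifs were picked after the levels were seen, the shares are descriptions, and 3 of the 4 members with the antioxidant core were among the 10 not tested.

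*Aldh2*, the mitochondrial enzyme that clears acetaldehyde, had the highest level per length of the *Aldh* genes. It was at 266, 167 and 219 CPM in *Nf1*/*p53* dKO lines and at 130.2, 219 and 156 CPM in *Nf1*/*Cdkn2a* dKO lines. The groups overlapped (log2 fold change -0.37 ± 0.26, adjusted *P* = 0.438, edgeR), although the lines within each genotype were separate. Its mitochondrial relative *Aldh1b1* stayed at or under 0.513 CPM in every line. *Aldh16a1*, a member without known catalytic activity in mammals, was the steadiest of all tested members, at 29.1, 25.8 and 29.0 CPM against 28.6, 29.0 and 30.0 CPM.

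The 6 general aldehyde reductases tested had fitted log2 fold changes of -0.27 to 0.52 between genotypes, and none was called (1.8% of all genes). *Akr1a1* was at 370, 393 and 481 CPM in *Nf1*/*p53* dKO lines and at 436, 475 and 503 CPM in *Nf1*/*Cdkn2a* dKO lines, with overlap and a log2 fold change of 0.18 (adjusted *P* = 0.525, edgeR). *Akr1b3*, aldose reductase, was at 241 to 728 CPM, with *Nf1*/*p53* dKO line 3 and *Nf1*/*Cdkn2a* dKO line 2 the highest, and 13.6% of its 50-base stretches occur in other gene models. It lies with *Akr1b8*, *Akr1b10* and *Akr1b7* in 121 kb of chromosome 6, and these neighbors held unlike levels, *Akr1b8*, an aldose reductase-like gene, at 83.7 to 137 CPM, *Akr1b10* at 10.8 to 22.2 CPM and *Akr1b7* at no more than 0.0830 CPM. *Akr7a5*, a reductase of aflatoxin aldehyde, was at 21.0 to 29.2 CPM and overlapped. *Akr1e1*, which reduces anhydrofructose, was at 13.1 to 16.8 CPM in *Nf1*/*p53* dKO lines and at 12.1 to 13.0 CPM in *Nf1*/*Cdkn2a* dKO lines, apart but by a log2 fold change of only -0.27 (adjusted *P* = 0.449, edgeR).

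The hydroxysteroid dehydrogenases and steroid reductases number 10 genes, of which 3 were tested. *Akr1c18* (chr13:4132615-4150654, minus strand) encodes the enzyme that inactivates progesterone. It was at 63.4, 5.64 and 4.62 CPM in *Nf1*/*p53* dKO lines and at 218, 534 and 173 CPM in *Nf1*/*Cdkn2a* dKO lines. The genotypes did not overlap, and *Nf1*/*p53* dKO line 1 stood more than 10 times above the other 2 lines of its genotype. The log2 fold change of 3.65 ± 1.16 was not called (adjusted *P* = 0.137, edgeR). Without *Nf1*/*p53* dKO line 1 it was 5.91 and called (adjusted *P* = 0.0445, edgeR), the remaining omissions of a line giving 3.00 to 3.94. Only 0.581% of its 50-base stretches were found in another gene, so the count is nearly all its own.

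*Akr1c18* lies among 9 genes in 560 kb of chromosome 13 (8 *Akr1c* genes and *Akr1e1*), and its neighbors did not share its level. *Akr1c14*, a 3-alpha-hydroxysteroid dehydrogenase 41.9 kb away, was at 2.94, 5.04 and 0.567 CPM in *Nf1*/*p53* dKO lines and at 11.9, 1.23 and 7.52 CPM in *Nf1*/*Cdkn2a* dKO lines. In *Nf1*/*Cdkn2a* dKO line 2, where *Akr1c18* was highest, *Akr1c14* was lowest of its genotype, and the groups overlapped (log2 fold change 1.27 ± 0.98, adjusted *P* = 0.484, edgeR). *Akr1c13*, 40.5 kb away on the other side, stayed between 0.198 and 2.49 CPM, and 24.2% of its 50-base stretches are shared with *Akr1c12*. The other 5 *Akr1c* genes of the cluster were not tested.

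**Figure D4:**
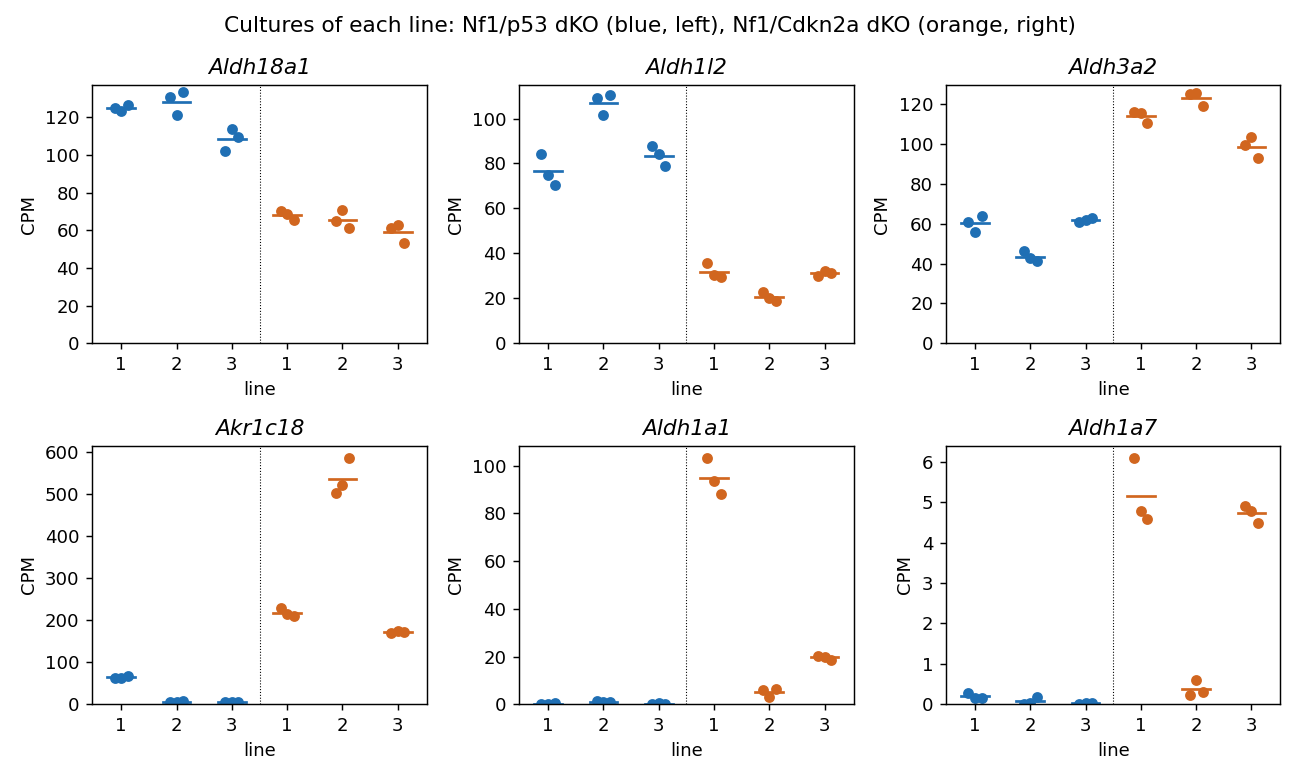
CPM of 6 members in each culture (points, 3 per line) with the mean of the line (bar), linear axes from 0, *Nf1*/*p53* dKO lines 1 to 3 in blue on the left and *Nf1*/*Cdkn2a* dKO lines 1 to 3 in orange on the right of each panel. For all 6 members the line levels of the genotypes are apart, though single cultures overlap for *Aldh1a7*. Lines within a genotype sit close for *Aldh18a1* and *Aldh1l2* and far apart for *Akr1c18*, *Aldh1a1* and *Aldh1a7*.

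The members of wide range did not follow 1 order of lines. Among *Nf1*/*Cdkn2a* dKO lines, *Aldh1a1*, *Aldh1a7*, *Aldh3a1* and *Akr1c14* were highest in line 1, then line 3, and lowest in line 2, while *Akr1c18* and *Aldh1l1* were highest in line 2. Among *Nf1*/*p53* dKO lines, *Aldh3a1*, *Aldh1l1*, *Aldh1a7* and *Akr1c18* were highest in line 1, and *Aldh1a1*, *Aldh1a3* and *Akr1c14* in line 2.

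Other alcohol and carbonyl enzymes gave 1 called gene among 13 tested of 15 listed, against 1.8% of all genes. *Dcxr*, which reduces xylulose and dicarbonyls, was at 2.35, 2.36 and 2.01 CPM in *Nf1*/*p53* dKO lines and at 10.6, 11.8 and 16.2 CPM in *Nf1*/*Cdkn2a* dKO lines. Every *Nf1*/*Cdkn2a* dKO line was above 4 times every *Nf1*/*p53* dKO line, and *Dcxr* rose by 2.52 on the log2 scale (SE 0.28, adjusted *P* = 0.0248, edgeR). It was still called without *Nf1*/*p53* dKO line 1 or line 3, and not when any of the other 4 lines was left out. The lowest of the list was *Sord*, which turns the sorbitol that aldose reductase makes into fructose, at 47.1, 42.8 and 28.0 CPM against 17.3, 13.6 and 17.3 CPM (log2 fold change -1.29, adjusted *P* = 0.0528, edgeR). From this list DESeq2 on the 6 lines called *Dcxr*, *Esd* and *Sord*. Of 12 NRF2 target genes outside the families, none was called (1.8% of all genes) and 4 had an unadjusted *P* under 0.05 (22.4% of all genes). They ran from *Gclc*, a subunit of the enzyme that starts glutathione synthesis, at 124, 119.9 and 147 CPM against 114, 69.2 and 78.5 CPM (log2 fold change -0.58, adjusted *P* = 0.183, edgeR), to *Ephx1*, an epoxide hydrolase, at 27.8, 16.8 and 5.33 CPM against 170.0, 77.9 and 188 CPM (log2 fold change 3.12, adjusted *P* = 0.0629, edgeR). Of the 12 NRF2 targets, every *Nf1*/*Cdkn2a* dKO line was above every *Nf1*/*p53* dKO line for 3 (*Nqo1*, *Txnrd1* and *Ephx1*, 14.8% of all genes). The reverse held for 1 (*Gclc*, 16.6% of all genes). DESeq2 on the 6 lines called those 3, and 2171 of all genes. Over the 4 lists together, 49 genes were tested, 25 had a fitted change above 0 and 24 below, and the median log2 fold change was 0.01.

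Both calls were sensitive to the lines used. *Aldh1l2* and *Aldh18a1* kept their direction whichever line was left out, with log2 fold changes of -1.76 to -1.48 and of -0.95 to -0.83, but the adjusted *P* then ranged from 0.0486 to 0.124 and from 0.0483 to 0.142 (edgeR). *Aldh1l2* remained called only without *Nf1*/*p53* dKO line 1, and *Aldh18a1* only without *Nf1*/*p53* dKO line 3. In the 4 lines with *Xist*, 3 against 1, the changes were -1.48 (adjusted *P* = 0.380) and -0.996 (adjusted *P* = 0.410) by edgeR, where the single *Nf1*/*Cdkn2a* dKO line is assumed to vary like the others.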

How the data were processed

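RNA-seq was run by a company on 18 libraries, 3 cultures of each of 6 lines. The authors deposited a table of raw counts, whole numbers of reads that were not normalized, for 35275 mouse Ensembl genes, of which 34490, all 37 members included, are in GENCODE M21, an annotation of GRCm38. The submitters' processing notes name CASAVA, STAR 2.5, DESeq2 1.14.1, GRCm38 and mm10, without role or order here. The counting tool, its strand setting and the annotation version are not given in the sources used here. The labels and methods mention no molecular identifiers, so floors (3 counts) cover counting error only.

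Genotype, line and culture were taken from the sample titles. Counts of the 3 cultures were added up, as they come from 1 tumor. In every line the counts of any 2 cultures differed by more than sampling noise (chi-square per degree of freedom 3.57 to 29.2). Low genes were removed by filterByExpr of edgeR (at least 10 counts, at least 15 in total), and the rest were scaled with TMM (factors 0.941 to 1.06) and tested with edgeR's quasi-likelihood test and Benjamini-Hochberg adjustment over all 15207 genes kept (edgeR 4.0.16, limma 3.58.1, DESeq2 1.42.0, R 4.3.3). CPM, and TPM on the union of a gene's exons, were computed from the counts. Shared stretches are 50-base windows of GENCODE M21 transcripts found in transcripts of another gene. Promoter windows came from RefSeq (GRCm38.p6), with none at hand for *Akr1b3*, *Akr1c20*, *Aldh1a3*, *Aldh1l2*, *Aldh2*, *Aldh3a1*, *Aldh3b2* and *Aldh7a1*. Tables and plots used Python 3.11.15, pandas 2.3.3 and matplotlib 3.10.9.

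Values for every line are given for members called, for those whose lines were apart with a log2 fold change of 1 or more in size, for those with a highest line of 5 CPM or more and 10 times the lowest, and for the member of each role with the highest TPM. From each of the 4 lists of related genes, the called, highest and lowest genes are given. Values of other members were added where the text sets neighbors or a role side by side. The members, lists and rules were chosen with earlier results of these data known, so no list is independent evidence.

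Alternatives were the 18 cultures as separate samples (edgeR or DESeq2), limma-voom with the line as random effect, DESeq2 on the 6 lines, other scalings, other filters, a block for the number of the line or of the culture, and omission of single lines. The subset of 4 lines with *Xist* and the Y-linked covariate were added after seeing the data. On simulated counts for the comparison of 3 lines against 3, 3, 26, 30 and 41 of 50 genes changed by 1, 2, 3 and 4 on the log2 scale were called among 14894 genes, with 2 unchanged genes called.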

Additional observations from a re-analysis of the deposited data

How the results depend on the processing

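*Aldh1b1* and *Aldh8a1*, at no more than 0.513 and 0.344 CPM in a line, rest on few counts. So do *Aldh1a1* (14, 76 and 17 counts) and *Aldh1a7* (15, 5 and 2 counts) in *Nf1*/*p53* dKO lines 1 to 3, which leaves their fold changes less certain. The effect of depth on the calls was not tested. Counts of calls are given for all genes, members and the 4 related lists, in that order, as 274, 2 and 1 in the report. Treating the 18 cultures as separate samples gave 6096, 10 and 24 with edgeR and 6409, 11 and 25 with DESeq2, and cultures of 1 line are not independent tumors. On the 6 lines DESeq2 gave 2171, 6 and 11, and limma-voom with the line as random effect gave 2173, 5 and 13. Of the members, DESeq2 had 4 higher and 2 lower, and limma-voom 2 higher (*Akr1c18* and *Aldh3a2*) and 3 lower. Raw totals gave 423, 2 and 2, with 86 of the 423 higher (20.3%, against 35.4% in the report) and the median of all genes shifted by -0.13. Upper-quartile scaling gave 320, 2 and 2, and no filter on low counts gave 411, 4 and 4. DESeq2's size factors (282, 3 and 1) and at least 10 counts in every line (226, 2 and 1) moved none of the 3 counts by more than 1.5 times. The share of calls that were higher was 46.8% with cultures in edgeR, 47.2% with cultures in DESeq2 and 52.7% with limma-voom.

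The line number as a replicate block gave 0, 0 and 0 with edgeR (2740, 6 and 15 at an unadjusted *P* under 0.05), and the culture number as a block 5681, 8 and 21. Lines of the same number did not deviate together (r across genes -0.12, -0.13 and -0.09, against 0.02 to 0.09 for lines of different number). Nor did cultures of the same number (median r -0.01 over 45 pairs, against 0.01 over 90 pairs of different number). The labels give no pairing, and whether the numbers mark a shared batch cannot be told from 3 lines per genotype. Leaving out 1 line gave 0 to 172, 0 to 2 and 0 to 2. The counts for all genes were 172, 27 and 107 without *Nf1*/*p53* dKO line 1, 2 or 3 and 0, 2 and 23 without *Nf1*/*Cdkn2a* dKO line 1, 2 or 3. The 4 lines with *Xist* gave 0, 0 and 0 with edgeR (5 members and 10 list genes at an unadjusted *P* under 0.05), and the Y-linked covariate gave 0, 0 and 0 (6 and 11). These fits hold fewer samples or more terms, and other causes were not tested.

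Changes of sign came with members of small or line-driven change. *Akr1b8* was 0.0013 without a filter. With raw totals *Aldh9a1* was -0.0097 and *Aldh16a1* -0.073. In the 4 *Xist* lines *Aldh9a1* was -0.030, *Aldh3b1* 0.66, *Aldh1l1* -0.19 and *Akr1c13* -0.57, and with the Y-linked covariate -0.042, 0.65, -0.21 and -0.59. Leaving out a line moved the log2 fold change over 0 for *Akr1b3* (-0.77 to 0.30), *Akr1b8* (-0.13 to 0.19), *Aldh5a1* (-0.072 to 0.66), *Aldh9a1* (-0.10 to 0.30), *Aldh3a1* (-0.37 to 1.64), *Aldh3b1* (-0.66 to 0.64), *Aldh1l1* (-0.94 to 1.51) and *Aldh1a3* (-2.07 to 0.63). Within these ranges, the sign also changed without *Nf1*/*p53* dKO line 2 for *Akr1b8* (0.014), *Aldh3a1* (-0.048) and *Aldh1l1* (-0.055), without *Nf1*/*p53* dKO line 3 for *Akr1b8* (0.056), *Aldh9a1* (-0.029) and *Aldh1l1* (-0.36), and without *Nf1*/*Cdkn2a* dKO line 1, 2 or 3 for *Aldh3b1* (0.17 and 0.11, lines 1 and 2) and *Akr1b3* (0.017, line 3). *Aldh1l2*, *Aldh18a1*, *Aldh3a2*, *Akr1c18*, *Aldh1a1* and *Aldh1a7* kept their direction in every alternative run.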
